A study of Homo sapiens with 26 samples.

Results

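The guide set named PAX3_Fusion_DBD holds 10 guide RNAs, sgRNA3206 to sgRNA3215, chosen by that label in the target column of the count files. The same 10 names stood in each of the 10 library pools (CF1 to CF3, DR1, DR2, KP1, KP2 and TF1 to TF3), among 10012 distinct guide names in all. Of these, 67 guides were carried by every pool, and the pools held 817 to 1182 guides each. The cells were RH4, an established alveolar rhabdomyosarcoma line with the PAX3-FOXO1 genotype, carried by all groups alike. For each pool, cells given the guide library and selected with a drug were collected at day 7 and fixed, and FACS split them by staining for myosin heavy chain (MYH), a contractile protein that muscle cells make as they differentiate, into a high and a low arm. The sort gates are not stated. Each arm of each sort is 1 sample, so the 10 guides were read in 10 MYH high and 10 MYH low samples. The labels do not say whether the sorts came from separate infections or days, and p-values over sorts measure only the spread between these sorts. Other samples of the series carry libraries without this guide label and were not used here.

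As background, PAX3 is a transcription factor of muscle progenitors that binds DNA through a paired domain and a homeodomain. In fusion-positive alveolar rhabdomyosarcoma a translocation joins this DNA-binding part to the transactivation domain of FOXO1. The fusion protein keeps the cells in a proliferating, incompletely differentiated muscle state, and its loss is known to let such cells differentiate. A guide in the PAX3 DNA-binding part cuts the fusion gene and the intact PAX3 allele alike, where PAX3 is present. The values below ask how strongly each single guide was enriched in MYH high cells, and how steady the guides were from sort to sort. The files used here name the guides by number without their letters or positions in PAX3.

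All sorts were deeply sequenced. Totals ran from 5548348 (DR1, MYH low) to 166032777 counts (CF2, MYH low), and the members had 388 to 1163402 counts per sample. Values are log2 ratios of MYH high over MYH low on CPM (counts per 1000000 reads) with a pseudocount of 1 CPM, shifted so that the median guide of each pool lies at 0. In pool CF3 the negative-control guides had a median of 1.30 on that scale, against -0.11 to 0.07 in the other 9 sorts. Members' values from CF3 are therefore relative to the median library guide and not to the negative controls, and the part of the raised controls in these values was not tested.

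The 10 guides were scarce in MYH low cells and abundant in MYH high cells of every sort. Together they held 0.184% (CF2) to 0.504% (DR1) of MYH low reads, with a median of 0.279%. In MYH high cells they held 2.02% (KP1) to 4.30% (DR1), with a median of 2.76%. The ranges of the arms did not overlap. Exact 95% binomial intervals were narrow, 0.183 to 0.184% for the lowest share and 4.29 to 4.30% for the highest. They cover counting error only, since PCR reads without molecular identifiers are not independent molecules. The share rose 6.13-fold in TF3, the lowest, and 21.0-fold in CF2, the highest. An equal share of reads for 10 guides would have been 0.846 to 1.22%. The members together lay below it in every MYH low sample and above it in every MYH high sample. Single guides could depart from this: in DR1, sgRNA3210 had 69.9 CPM in MYH low and 48.8 CPM in MYH high cells. No unsorted sample of these pools was used here, so the level before the sort is not given.

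All 10 guides were higher in MYH high cells over the 10 sorts. edgeR's quasi-likelihood test on the counts of 59 shared guides, with the sort as a block, called 10 of 10 members at a Benjamini-Hochberg adjusted p under 0.05. In that fit 40.7% of the guides tested were called higher, so the call alone does not set a member apart. Besides the members, the called guides were 11 of 11 guides labelled FOXO1_fusion in at least some pools and 3 of 38 others. Among the 11, sgRNA3191, at a log2 ratio of 3.10, was labelled FOXO1_fusion in some pools and FOXO1_non-fusion in others. What set the members apart from most shared guides was size, a trait they had in common with the FOXO1 guides. In single sorts, 97 of 100 member values were at least 1, a 2-fold excess, where 2.60% of all guide values reached that level. Of the 276 guide values at that level, 70 lay outside the PAX3 and FOXO1 fusion guides.

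By their means, single guides were grouped into 5 steps of strength. The top step held sgRNA3211, sgRNA3209, sgRNA3212 and sgRNA3213. Below them lay sgRNA3215 by itself, then sgRNA3207, sgRNA3214 and sgRNA3206, and then sgRNA3208. At the bottom stood sgRNA3210, well apart from the rest. These steps are a description drawn from the values. The tests of single pairs follow below and use the same values, so their counts by step do not test the steps.

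In the top step, sgRNA3211 ran from 2.95 (TF2) through a median of 3.68 to 5.51 (KP2), with a mean of 3.88 ± 0.78 (SD, n = 10 sorts), or 14.7-fold. sgRNA3209 ran from 2.95 (TF3) through 3.49 to 5.20 (CF2), with a mean of 3.78 ± 0.71 (SD, n = 10 sorts). All values of both guides were above the 2-fold level, and their ranges over sorts overlapped almost fully. sgRNA3212 ran from 2.87 (TF2) through 3.63 to 5.27 (CF2), with a mean of 3.77 ± 0.69 (SD, n = 10 sorts). sgRNA3213 ran from 3.20 (TF3) through 3.42 to 5.16 (CF2), with a mean of 3.68 ± 0.65 (SD, n = 10 sorts). It had the highest lowest value of the 10 guides. edgeR's adjusted p for these guides lay between 2.16e-11 and 2.25e-10.

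On the next step, sgRNA3215 ran from 2.89 (TF3) through 3.24 to 4.26 (CF2), with a mean of 3.38 ± 0.50 (SD, n = 10 sorts). Its SD over sorts was the smallest of the 10 guides, and its edgeR adjusted p of 1.31e-11 the lowest. On the step after it, sgRNA3207 had a mean of 3.13 ± 0.61 (SD, n = 10 sorts), from 2.53 (TF3) through 3.04 to 4.52 (CF2). Set against the median of the 10 guides in the same sort its spread was the smallest, at -0.15 ± 0.09 (SD, n = 10 sorts). It ranked 6 to 8 among the members, so it lay near that median and in some sorts helped to set it. A small spread is partly built into this measure, which therefore does not show that sgRNA3207 was steadier. sgRNA3214 had 3.11 ± 0.64 (SD, n = 10 sorts), from 2.28 (TF3) through 3.06 to 4.55 (CF2). sgRNA3206 had 3.00 ± 0.65 (SD, n = 10 sorts), from 2.25 (KP1) through 2.96 to 4.03 (CF3). sgRNA3215 and these 3 guides rose 8.02-fold to 10.4-fold by their means, and edgeR's adjusted p was at most 2.98e-10.

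The lower 2 guides kept their place in every sort. sgRNA3208 ranked ninth of the 10 members in 10 of 10 sorts. Its values ran from 1.75 (TF3) through 2.46 to 3.46 (CF2), with a mean of 2.49 ± 0.55 (SD, n = 10 sorts) and an edgeR adjusted p of 2.32e-10. Each of its values was still above 2-fold, and among all guides of a pool it ranked 15 to 17. Its lower place among the members was therefore a lower enrichment and not a lack of one.

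sgRNA3210 ranked last among the members in 10 of 10 sorts. Its log2 ratio was 1.08 in TF1, 1.10 in TF2, 0.33 in TF3, 0.70 in KP1 and 1.04 in KP2. It was -0.40 in DR1, 1.42 in DR2, 1.49 in CF1, 2.10 in CF2 and 1.57 in CF3. So 9 of 10 sorts lay above 0 and 7 of 10 at or above 1, with a mean of 1.04 ± 0.70 (SD, n = 10 sorts), or 2.06-fold. edgeR's adjusted p was 0.000513. Without the sort block it was 0.0734, and with TMM scaling over the shared guides 0.0502, so both end the call for this guide alone. In DR1 it ranked 792 of 818 guides, and in the other 9 sorts between 21 and 117 of its pool. Without DR1 its mean was 1.20 ± 0.52 (SD, n = 9 sorts). Over all 10 sorts its mean was 0.83 with a pseudocount of 10 CPM, under the 2-fold level, and 1.07 with 0.1 CPM. Centred on the negative controls, its CF3 value was 0.27 in place of 1.57, and 6 of 10 sorts lay at or above 1.

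sgRNA3210 was also the rarest member in both arms of all 10 sorts. It had 5.33 to 69.9 CPM in MYH low and 11.7 to 169 CPM in MYH high cells, from 388 to 4464 and 560 to 10956 counts. Its counting error was at most 0.09 on the log2 scale, which covers reads and not the number of cells sorted. sgRNA3209 was the second rarest member in MYH low cells in 10 of 10 sorts, at 37.6 to 142 CPM, and belonged to the top step. The MYH low level is the denominator of the ratio, so a guide with a high ratio tends to be scarce there. The part of low abundance in the value of sgRNA3210 was not tested.

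All 45 pairs of members were compared within sorts by an exact permutation test that flips the sign of each sort's difference (two-sided), adjusted by Benjamini-Hochberg over the 45. Of these pairs, 34 differed at an adjusted p under 0.05. sgRNA3210 differed from all 9 other guides, by 1.44 to 2.83, and was the lower in 10 of 10 sorts each time. sgRNA3208 lay below each of the 8 guides above it in 10 of 10 sorts, by 0.52 to 1.39. For these 17 pairs the exact permutation test gave an adjusted p of 0.0040, from an unadjusted 0.00195 that is the smallest 10 sorts can give.

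Between the top 5 guides and the next 3, 15 of 15 pairs differed. sgRNA3213 exceeded sgRNA3207 by 0.55 ± 0.22 (SD, n = 10 sorts), and did so in 10 of 10 sorts (adjusted p = 0.0040, exact permutation test). sgRNA3215 exceeded sgRNA3207, its lower neighbour, by 0.25 ± 0.25 (SD, n = 10 sorts), and in 9 of 10 sorts (adjusted p = 0.0198, exact permutation test). Among the top 4 guides 0 of 6 pairs differed. sgRNA3209 and sgRNA3212 differed by 0.01, with a 95% interval of -0.21 to 0.23, and sgRNA3211 and sgRNA3213 by 0.20, with the wide interval of -0.39 to 0.78. Among sgRNA3207, sgRNA3214 and sgRNA3206, 0 of 3 pairs differed, with intervals of -0.11 to 0.16, -0.19 to 0.41 and -0.15 to 0.42. sgRNA3215 was below 2 of the top 4 guides by the exact permutation test, sgRNA3211 (adjusted p = 0.022) and sgRNA3213 (adjusted p = 0.031). The 95% interval for sgRNA3211 was -0.07 to 1.06, which includes 0, and it was the higher in 7 of 10 sorts. Its largest difference was 2.61. For sgRNA3213 the interval was 0.06 to 0.54, with 8 of 10 sorts higher.

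No single guide led in every sort. Of the 10 guides, 5 ranked first among the members at least once: sgRNA3211 in 3 sorts, sgRNA3209, sgRNA3212 and sgRNA3213 in 2 each, and sgRNA3206 in 1. The first place of sgRNA3211 by its mean rested on KP2, where it stood at 5.51, or 45.7-fold, from 11804 CPM in MYH high and 273 CPM in MYH low cells. In the other 9 sorts its MYH high level was 1672 to 3810 CPM. Without KP2 its mean was 3.69 ± 0.57 (SD, n = 9 sorts) and it ranked 4, behind sgRNA3212 at 3.77, sgRNA3209 at 3.74 and sgRNA3213 at 3.72.

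A swing of that size in 1 sort was also seen in a negative control. sgRNA3239, a guide labelled neg, had a log2 ratio of 4.43 in CF1, above all 10 members of that sort, and of -2.51 in DR1 and -2.06 in TF2. In CF3 it had 2.22, and in the remaining 6 sorts -0.01 to 0.94. In DR1 it held 25718 CPM of the MYH low sample. So a guide labelled as having no target gene moved by several log2 units between sorts, more than any member did between its lowest and highest sort.

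The order of the guides was much alike from sort to sort. Kendall's coefficient of concordance was 0.769 for the 10 guides over 10 sorts. It is 1 for identical orders and 0 where all guides have the same sum of ranks. Unrelated orders give on average a value somewhat above 0. Without CF3 it was 0.843. In CF3 sgRNA3206 ranked first, where it ranked 5 to 8 in the other 9 sorts, and sgRNA3209 ranked 7, where it ranked 1 to 4 elsewhere. A good part of this concordance came from the lowest guides: without sgRNA3210 it was 0.683, and without sgRNA3208 as well 0.547. These values describe the order and carry no test.

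Sorts differed in overall strength, and the guides moved together. In a split of the 100 values into guide, sort and remainder, differences between guides took 63.0% of the variation, differences between sorts 25.4% and the remainder 11.5%. Without sgRNA3210 the sorts took 48.5% and the guides 33.5%. The remainder corresponds to an SD of 0.38 for a guide in a sort, against a counting error of at most 0.09. That error treats reads as independent and does not cover the number of cells or DNA templates behind them.

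The median of the 10 guides was lowest in TF3 at 2.71, KP2 at 2.80 and KP1 at 2.80. It was 2.91 in TF2, 3.11 in DR2, 3.24 in CF1, 3.25 in DR1 and 3.60 in CF3. The highest medians were 3.84 in TF1 and 4.53 in CF2. CF2 gave the highest value of 8 of the 10 guides, sgRNA3211 (KP2) and sgRNA3206 (CF3) being the exceptions. By the prefix of the pool name, the means of the medians were 3.15 for 3 TF sorts, 2.80 for 2 KP sorts, 3.18 for 2 DR sorts and 3.79 for 3 CF sorts. The place of CF3 depended on the reference. Centred on its own negative controls, CF3 had a median of 2.31, the lowest of the 10 sorts, while the other sorts then lay between 2.73 and 4.63.

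Sequencing depth did not track this strength detectably. Over 10 sorts, the set median and the log2 of the smaller sample total had a Pearson r of 0.16 and a Spearman rho of 0.15 (permutation p of 0.64 and 0.68, adjusted over 2 relations 0.64 and 0.68). Without DR1 and CF3, the sorts farthest from the median depth, r was 0.49. Set against the spread of the library guides (median absolute deviation), r was 0.37 and rho 0.50 (permutation p of 0.30 and 0.15, adjusted 0.60 and 0.29). Without KP1 and CF3, r was 0.21. With 10 sorts, only strong relations could have been detected.

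Among all guides of a pool, 9 of the 10 members stood in the top 20 in every sort, the exception being sgRNA3210 each time. The other places were held mainly by the FOXO1 guides, 9 to 11 of them per sort, and by 0 to 2 guides of other labels. A member ranked first of its pool in 7 of 10 sorts. The highest guide outside the fusion labels lay below 9 or 10 members in 8 sorts. In KP1 it lay below 8 members, and in CF1 that guide was the negative control sgRNA3239.

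The closest set was FOXO1_fusion, guides labelled as the FOXO1 part of the fusion, and the PAX3 guides had the higher median. Single guides of the sets overlapped. By edgeR's log2 ratios the FOXO1_fusion guides ran from 1.57 to 3.73 and the members from 1.09 to 3.87. The difference of medians was 0.43 ± 0.13 (SD, n = 10 sorts), positive in 10 of 10 sorts, and the same exact permutation test gave a p of 0.00234 after Benjamini-Hochberg adjustment over 6 sets. The difference ranged from 0.17 in CF3 to 0.58 in TF2. By prefix the mean difference was 0.51 for the TF sorts, 0.47 for KP, 0.48 for DR and 0.28 for CF. The sorts that gave high values to one set gave high values to the other, and both share the same samples.

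The PAX3 guides spread more widely than the FOXO1 guides, and this rested on sgRNA3210. The SD over guides within a sort averaged 0.90 for all 10 members and 0.75 for the 10 guides labelled FOXO1_fusion in every pool, and was larger for the members in 9 of 10 sorts. Without sgRNA3210 the members' SD averaged 0.53 and was larger in 1 of 10 sorts. That value leaves out the most distant guide of 1 set only, chosen after the values were seen, so it does not show that the PAX3 guides are the more alike. Over sorts, the members' SD ran from 0.58 (DR2) to 1.21 (DR1), and without sgRNA3210 from 0.23 (DR2) to 1.02 (KP2).

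Against the sets not labelled as directed at the fusion, the excess of the PAX3 guides was about 3 log2 units. It was 3.09 ± 0.55 (SD, n = 10 sorts) over PAX3_non-fusion, guides labelled as PAX3 outside the fusion. It was 3.09 ± 0.53 (SD, n = 9 sorts) over FOXO1_non-fusion, 3.04 ± 0.60 over the replication clamp PCNA, 3.27 ± 0.61 over the muscle regulator MYOD1 and 3.17 ± 0.65 over the negative controls (SD, n = 10 sorts). Each difference was positive in all sorts, with an adjusted p of 0.00234 (0.00391 for FOXO1_non-fusion) in the exact permutation test. TF1 had no FOXO1_non-fusion median. In the pools that label sgRNA3191 as FOXO1_non-fusion, that set includes this strongly enriched guide. The smallest difference from the negative controls was 2.31, in CF3, and the largest 4.63, in CF2.

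The relative abundance of the guides in MYH low cells was ordered differently in CF1 and CF3 than in the other pools. Over the 10 guides, the Spearman correlation of MYH low CPM was 0.99 between CF1 and CF3, and 0.50 to 0.77 between either of them and a TF, KP or DR sort. CF2 went with the other pools, at 0.76 to 0.96 with the TF, KP and DR sorts against 0.66 with CF1 and 0.61 with CF3. sgRNA3206 made up 8.05% of the set's MYH low reads in CF1 and 7.07% in CF3. It made up 15.4% in CF2 and 15.6 to 22.9% in the 7 TF, KP and DR sorts. sgRNA3214 was higher in all 3 CF sorts, at 6.59 to 9.15% against 2.50 to 4.52%. For the log2 ratios the sort that differed most was CF3, with a Spearman correlation of 0.32 to 0.54 with the TF, KP and DR sorts, where CF1 had 0.44 to 0.89 and CF2 0.73 to 0.94. Pairs of sorts with the same prefix had a median of 0.73, and pairs between TF, KP and DR 0.87. These correlations describe 10 guides, and pairs share samples.

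The authors' deposited table gives PAX3_Fusion_DBD a beta score of 1.76 in TF3 to 3.02 in CF2, the extremes that the log2 ratios give too. In the authors' deposited table it was the highest target of 10 of 10 pools, with FOXO1_fusion next in each. Its rate in the column fdr is listed as 0 in 10 of 10 pools in the authors' deposited table, while the Wald rate runs from 0.511 to 0.846. The z score in the authors' deposited table was lowest, 0.462, in CF2, where beta was highest.

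Other genes of PAX3-FOXO1 biology, taken as a list of 41 partners, coregulators and core muscle factors, lay far below these guides. Of the list, 30 genes were measured as library targets, in 33 measurements of 1 sort each. Their median log2 ratio was 0.01, against -0.01 for all 984 target measurements. At least 0.3 was reached by 4 of the 33 (1.52% of all targets), and at most -0.3 by 2 (0.813% of all targets). Centred on the negative controls, 6 reached the upper and 7 the lower level, so the balance of directions depended on the reference. The first 4 were NFYC at 1.63 (SD over 10 guides 0.91), NFYA at 0.56 (SD 0.28) and NFYB at 0.34 (SD 0.64), the subunits of the CCAAT-binding factor NF-Y, and the SWI/SNF subunit ARID1A in CF1 at 0.39 (SD 0.19). ARID1A had -0.09 (SD 0.26) in TF3. The lowest were the muscle regulators MYOG at -0.56 (SD 0.21) and MYOD1 at -0.48 (SD 0.19) over its own guides of TF1. Both values come from the 1 sort TF1. The MYOD1 guides carried by every pool had a median of -0.33 in TF1. Relative to the median guide, their medians averaged 0.01 ± 0.21 over all sorts (SD, n = 10 sorts). On that scale the low MYOD1 value was not general to the sorts. In CF3 their median of 0.52 lay below the negative controls, which stood at 1.30. The list was chosen with earlier results of these data known. In TF1, where both were measured, 9 of 10 PAX3 guides lay above the highest NFYC guide, which stood at 2.14.

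The study's title says that NF-Y activates the fusion, and the fusion gene is transcribed from the PAX3 promoter, so its sequence is shown here. It is the RefSeq stretch of 250 bases upstream of the PAX3 start, chr2:222298999-222299248 of GRCh38.p14, on the minus strand. Capitals mark the motif CCAAT, searched on both strands; it stood 2 times, on the gene's strand, with its first base 118 and 73 bases upstream of the start. Of 35116 promoters in the table, 32.0% held the motif at least once in the same window, and 9.53% at least 2 times. A match is a description of the letters, and no binding was measured in these samples.
PAX3 promoter: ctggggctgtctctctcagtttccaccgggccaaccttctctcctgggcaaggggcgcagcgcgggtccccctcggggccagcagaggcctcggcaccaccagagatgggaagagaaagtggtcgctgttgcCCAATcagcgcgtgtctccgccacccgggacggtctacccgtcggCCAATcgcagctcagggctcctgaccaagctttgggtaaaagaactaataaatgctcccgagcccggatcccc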

How the data were processed

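Guide cassettes were amplified by PCR from genomic DNA and sequenced, per the labels' protocols. The count files the authors deposited hold whole-number reads for each guide. The submitters' processing notes name MAGeCK and FastQC, without versions or settings. The authors deposited for each pool a table of a score (beta, z), with p-values and rates, per the file headers; the logarithm behind beta is not stated, and 2 unnamed columns were not used. Samples were grouped by pool and arm as titled; both arms of a pool come from 1 sort, so the sort was the block.

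Counts were scaled to CPM and log2 ratios taken with a pseudocount of 1 CPM, centred on the pool's median guide; a guide needed at least 10 counts in both arms together. Shared guides were tested with edgeR 4.0.16 (effective library sizes from the same centring), with DESeq2 1.42.0 as an alternative; the fit was tested on simulated data. Differences over sorts used exact sign-flip permutation tests, correlations 100000 permutations, and intervals of differences the t distribution over 10 sorts. All 10 members were named, with other sets as sets, the highest library target, and partner-list members past 0.3. The members and lists were chosen with earlier results of these data known. Other tools were scipy 1.17.1, pandas 2.3.3 and numpy 2.4.6 under Python 3.11.15, and R 4.3.3.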

Additional observations from a re-analysis of the deposited data

Results flagged for a closer look

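Each member's log2 ratio over the 10 sorts, its distance from the set median, the set's summaries and its differences from other sets were searched for a sort far from the rest. Of 30 such series, 2 held one, and chance gives about 1 in 20. sgRNA3211 in KP2 lay 2.71 above the set median of that sort, where its next highest distance was 0.90 in CF1. The set median minus FOXO1_non-fusion was 4.36 in CF2, where the next highest of the 9 sorts had 3.29. The sort left out was TF1, which had no FOXO1_non-fusion median and whose set median of 3.84 was the second highest. Against PAX3_non-fusion, with all 10 sorts, CF2 also had 4.36 and was not flagged.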

How the results depend on the processing

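All 10 members stayed called under DESeq2, without centring, with centring on the negative controls, without a count minimum, by the exact sign-flip permutation test (adjusted p of at most 0.0138 over all shared guides) and without any 1 sort. Without the sort as a replicate block 9 were called, and with TMM 9. sgRNA3210 was the one lost each time, and under TMM 36 of the 59 shared guides were called lower. Kendall's coefficient ran from 0.753 to 0.843 with 1 sort left out. Between 32 and 36 pairs of members differed with 1 sort left out, and the excess over FOXO1_fusion at 0.41 to 0.46; without sgRNA3210, added after the data were seen, it was 0.52. Weak relations turned sign: depth, with r from -0.14 (without CF2) to 0.27 over the sorts left out, and library spread, with r of -0.12 under centring on the negative controls. Of the partner list, a threshold of 0.5 left 2 targets above and 1 below, and centring on the negative controls put 6 above and 7 below. Read counting error was at most 0.09 for a member, and error from the number of cells sorted was not measured. Pairing beyond the sort was not used.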

Other observations

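The authors' deposited tables for KP1 and KP2 list 9 guides for PAX3_Fusion_DBD, where the count files of these pools hold 10. In the other 8 pools the authors' deposited tables list 10. Which guide was left out is not stated in the tables.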
